A study of Arabidopsis thaliana with 16 samples.

Results

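The 10 genes described here are transcription factor genes that act where a leaf meets the stem, in the axil from which a side shoot can grow: LAS, RAX1, RAX2, RAX3, CUC1, CUC2, CUC3, LOB, REV and WRKY71. They were taken by locus identifier, as known regulators of this process, with earlier results of these data already known. Their reads were summed over all transcript models of each locus. The genes are 10 of 33602 loci in the counts, and all 10 passed the filter on low counts that left 20947 loci for testing. RNA came from the rosette region of Arabidopsis thaliana plants whose bolt was under 1 cm tall, cut down to the lower stem with its axillary meristems, in 16 poly(A) libraries.

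Each genotype gave 4 libraries, and each library was a pool of 2 to 3 plants. The groups were wild-type plants of the Col-0 background (WT), a double mutant of 2 cytokinin oxidase genes labelled ckx3 ckx5, the d14-7 mutant of the strigolactone receptor gene D14, and the scl28 mutant of the GRAS gene SCL28. Plants grew under 16 h light and 8 h dark, received no treatment, and were cut between 9 and 11 in the morning at 23 days after sowing, or at 25 days for scl28. Genotype and harvest day therefore cannot be told apart for scl28. The labels call the 3 mutants knock outs and name an allele for d14-7 alone.

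The targeted genes were read first as a check of the labels. SCL28 fell in scl28 to 15.5 CPM from 36.5 CPM in WT (log2 fold change -1.23 ± 0.15 SE, edgeR adjusted p = 3.99e-05), and D14 fell in d14-7 to 30.5 from 41.2 CPM (-0.43 ± 0.07, adjusted p = 0.000251), a level also seen in the ckx3 ckx5-labelled libraries (28.1 CPM, -0.55 ± 0.07, adjusted p = 1.37e-05). CPM is a locus's read count relative to its library's scaled total. CKX3 was higher, not lower, in the ckx3 ckx5-labelled libraries, at 1.73 CPM against 0.339 CPM in WT (2.4 ± 0.51, edgeR adjusted p = 0.00201). The WT values rest on 2 to 20 reads. CKX5 held 2.83 against 3.33 CPM (adjusted p = 0.634). As neither gene was called lower, this group is named "the ckx3 ckx5-labelled libraries" throughout. Read counts alone do not show whether a gene is disrupted, so the name does not mean that the label is wrong. The D14 level likewise did not set d14-7 apart from this group. As a check of the tissue, 5 listed meristem genes summed to between 239 and 436 CPM per library, carried by STM (means of 94.5 to 148 CPM), KNAT1 (103 to 162 CPM) and CLV1 (47 to 71 CPM). WUS (0.3 to 0.392 CPM) and CLV3 (0.101 to 0.28 CPM), which mark the centre of a meristem most narrowly, were near 0.

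An axillary meristem forms in a narrow boundary of slowly dividing cells between the stem and a leaf base. The NAC proteins CUC1, CUC2 and CUC3 mark and keep such boundaries, and the GRAS protein LAS and the MYB proteins RAX1, RAX2 and RAX3 are needed in them for the meristem to form in the vegetative rosette. WRKY71, also called EXB1, is known to raise RAX transcripts, LOB lowers brassinosteroid in boundary cells by switching on BAS1, and REV, a homeodomain leucine zipper protein, promotes meristem formation in the axil. The microRNA miR164 cuts CUC1 and CUC2 transcripts, and miR165 and miR166 cut REV.

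The microRNA sites are shown because they separate members of 1 family. Sequences come from RefSeq (assembly TAIR10.1), 5′ to 3′. Capitals mark the seed (bases 2 to 8) of each microRNA and, in each site, the bases that pair with it.
miR164a (chr2:19520770-19520790, plus strand): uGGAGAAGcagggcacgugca
CUC1 site (chr3:5111137-5111157, plus strand): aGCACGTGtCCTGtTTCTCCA
CUC2 site (chr5:21902301-21902321, minus strand): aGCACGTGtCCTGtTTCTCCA
CUC3 best window (chr1:28672053-28672073, minus strand): caCAtGctaCtaGaTTCTCCA
miR165a-3p (chr1:78932-78952, minus strand): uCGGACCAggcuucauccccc
REV site (chr5:24398787-24398898, plus strand, spanning an intron): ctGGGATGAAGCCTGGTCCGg
The sites of CUC1 and CUC2 lie in coding exons, are identical to each other and pair at 18 of 21 bases. The best window in CUC3 pairs at 12 of 21 bases, within the range of 11 to 14 found for the members that are not CUC1 or CUC2. REV pairs with miR165a-3p at 18 of 21 bases, and the other members at 11 to 13. The microRNAs themselves were not measured in these poly(A) libraries.

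By mean level, d14-7 was the lowest group for 8 of the 10 genes (all but CUC2 and CUC3), and scl28 the highest for 7 (all but RAX1, RAX3 and WRKY71, which were highest in WT). REV differed least, with means from 114 to 124 CPM. Each gene was tested with edgeR's quasi-likelihood test in 1 model of all 16 libraries, with p-values adjusted over all 20947 loci, with rise and fall used only for an adjusted p under 0.05. Of the 10 genes, 6 fell and 0 rose in d14-7 against WT by edgeR, with 0 higher also at an unadjusted p under 0.05 and by DESeq2 (median log2 fold change -0.78, while the median of all loci was -0.01). Over all loci, 38.7% were called in that comparison, 18.1% higher and 20.6% lower. In the ckx3 ckx5-labelled libraries against WT, 1 rose and 4 fell (median -0.18), beside 29.6% of all loci called, 13.6% higher and 16% lower. In scl28 against WT, 3 rose and 0 fell by edgeR, with 0 lower also at an unadjusted p under 0.05 and by DESeq2 (median 0.12), beside 19.8% of all loci, 9.3% higher and 10.5% lower. These 3 comparisons share the WT libraries. In bulk tissue, fewer cells that express a gene and less of its RNA per cell cannot be told apart.

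**Figure D1:**
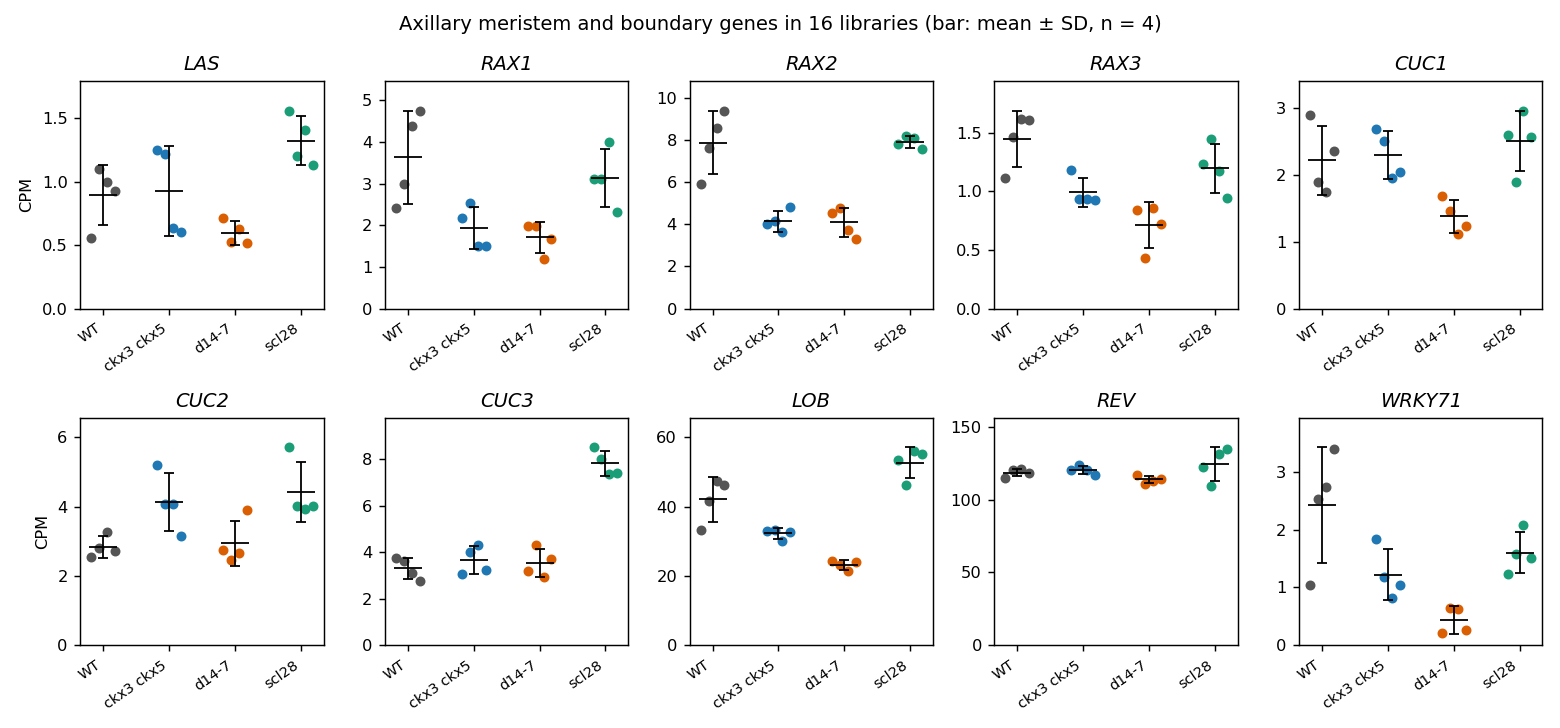
Level of each of the 10 genes (vertical axis, CPM, from 0) in each of the 16 libraries by genotype; points are libraries, bars the mean ± SD of 4, and the blue points are the ckx3 ckx5-labelled libraries. CUC3 stood at 7.36 to 8.5 CPM in scl28, above every other library, while REV stayed between 109 and 135 CPM.

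The mutants were also compared with each other. In d14-7 against scl28, 9 of the 10 genes fell, with REV the exception, and all 10 differences were negative (median -0.92), where 42.5% of all loci were called, 20% higher and 22.5% lower. In d14-7 against the ckx3 ckx5-labelled libraries, 4 fell, and all 10 differences were negative (median -0.48), where 36.8% of all loci were called, 17.8% higher and 19% lower. Of these 4, CUC2 (-0.49, edgeR adjusted p = 0.0454) was called in 13 of 25 alternative settings. In scl28 against the ckx3 ckx5-labelled libraries, 4 rose, and all 10 differences were positive (median 0.46), where 24.7% of all loci were called, 13.1% higher and 11.5% lower. Among these, RAX1 (0.71, edgeR adjusted p = 0.04997), was called in 10 of 25 alternative settings.

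The groups can also be compared by whether their 4 libraries overlap. In d14-7 and WT, 6 of the 10 genes did not overlap, where 26.8% of all loci did not. For the ckx3 ckx5-labelled libraries and WT this was 1 gene, also where 26.8% of all loci did not overlap, and for scl28 and WT 3 genes, where 18.8% did not. Between d14-7 and scl28 it was 9 genes against 40.4% of all loci, between d14-7 and the ckx3 ckx5-labelled libraries 5 genes against 41.4%, and between scl28 and the ckx3 ckx5-labelled libraries 3 genes against 29.9%.

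**Figure D2:**
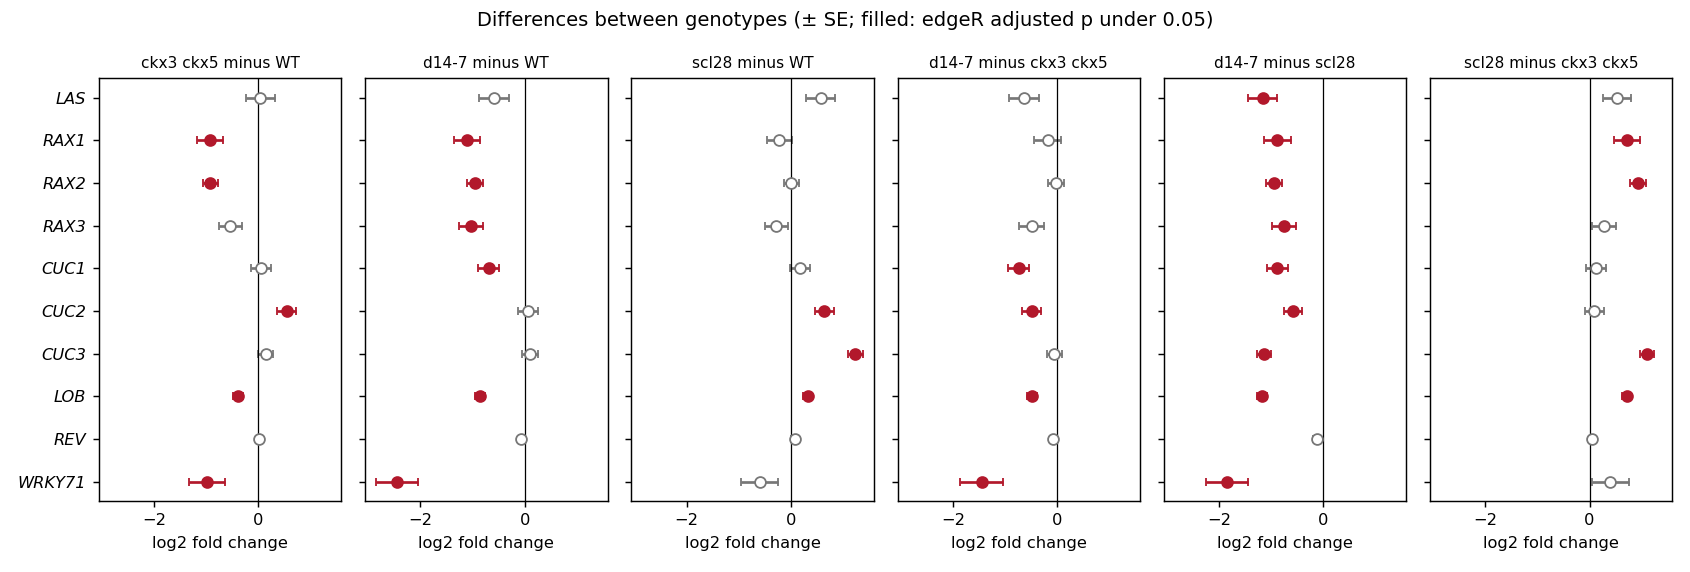
Log2 fold change (horizontal axis, first group minus second) of the 10 genes in the 6 comparisons, with bars of 1 SE; filled points passed the edgeR adjusted p of 0.05. The d14-7 minus scl28 panel has 9 filled points, all left of 0, from -1.85 for WRKY71 to -0.58 for CUC2.

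WRKY71 (AT1G29860, chr1:10454433-10455874, plus strand, 3 exons) showed the largest fold change of the 10 genes in the 6 comparisons. It was counted at 1.04, 2.53, 2.74 and 3.4 CPM in WT replicates 1 to 4, and at 0.211, 0.652, 0.626 and 0.259 CPM in d14-7, where these values rest on 5 to 21 reads. Levels were 1.84, 1.18, 0.813 and 1.05 CPM in the ckx3 ckx5-labelled libraries, and scl28 held 1.23, 1.58, 2.08 and 1.51 CPM. All d14-7 libraries lay below every library of the other groups, and WT replicate 1 lay far below the other WT libraries, inside the range of the ckx3 ckx5-labelled libraries and below all of scl28. WRKY71 was 5.46-fold lower in d14-7 than in WT (log2 fold change -2.45 ± 0.4, edgeR adjusted p = 0.000367). It was 1.99-fold lower in the ckx3 ckx5-labelled libraries than in WT (-0.99 ± 0.35, adjusted p = 0.0438), a call that held in 12 of 25 alternative settings. In scl28 the difference of -0.6 ± 0.35 did not pass (adjusted p = 0.24).

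By mean level of WRKY71 the order was WT, scl28, the ckx3 ckx5-labelled libraries and d14-7. Neighbours in that order did not differ past the threshold except the last pair (-1.45 ± 0.42, edgeR adjusted p = 0.0114). d14-7 was also below scl28 (-1.85 ± 0.41, adjusted p = 0.00183).

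RAX1, RAX2 and RAX3, the MYB genes that WRKY71 is known to raise, were all lower in d14-7 than in WT. The promoters are of interest because WRKY proteins bind the W-box core TTGAC. The 250 bases before the annotated start held TTGAC, on either strand, in 4 of the 10 genes, RAX1 among them, beside 44.9% of 27443 promoters of the same length. RAX1 held 2 matches, and its promoter is shown with both in capitals (GTCAA is TTGAC on the other strand).
RAX1 promoter (chr5:7695885-7696134, plus strand): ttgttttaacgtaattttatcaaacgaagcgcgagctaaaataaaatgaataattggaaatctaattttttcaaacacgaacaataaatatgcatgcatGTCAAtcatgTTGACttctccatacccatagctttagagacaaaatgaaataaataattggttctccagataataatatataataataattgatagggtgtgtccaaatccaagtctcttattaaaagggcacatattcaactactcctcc
The RAX1 matches begin 151 and 141 bases before the start. A match describes the letters only. The TCP-type motif GGNCCC and the G-box CACGTG were found in none of the 10 promoters on either strand, beside 7.35% and 6.49% of all promoters.

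RAX1 (AT5G23000, chr5:7696135-7698022, plus strand) stood at 2.41, 2.99, 4.39 and 4.75 CPM in WT replicates 1 to 4 and at 1.98, 1.99, 1.19 and 1.67 CPM in d14-7. It stood at 2.18, 2.54, 1.51 and 1.5 CPM in the ckx3 ckx5-labelled libraries and at 3.12, 3.1, 4 and 2.32 CPM in scl28. All d14-7 libraries lay below all WT libraries, while the ckx3 ckx5-labelled libraries overlapped WT through WT replicate 1. RAX1 fell 2.14-fold in d14-7 (log2 -1.1 ± 0.25, edgeR adjusted p = 0.004) and 1.89-fold in the ckx3 ckx5-labelled libraries (-0.92 ± 0.25, adjusted p = 0.0109). scl28 differed from WT by -0.22 (95% interval -0.73 to 0.29).

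RAX2 (AT2G36890, chr2:15485619-15487451, plus strand) had the highest level per kb of transcript of the 3 RAX genes, with 6.03 CPM per kb in WT against 2.59 for RAX1 and 1.1 for RAX3. Its levels were 5.89, 7.62, 8.57 and 9.39 CPM in WT and 7.79, 8.19, 8.11 and 7.57 CPM in scl28. The ckx3 ckx5-labelled libraries held 3.99, 4.15, 3.64 and 4.82 CPM and d14-7 held 4.55, 4.78, 3.75 and 3.31 CPM. The groups split in 2 levels without overlap, with WT and scl28 above and the other 2 below. The fall was 1.9-fold in the ckx3 ckx5-labelled libraries (log2 -0.92 ± 0.15, edgeR adjusted p = 0.000171) and 1.93-fold in d14-7 (-0.95 ± 0.15, adjusted p = 0.000244), and both calls held in all 25 alternative settings. The 2 lower groups differed from each other by -0.02 (95% interval -0.34 to 0.3), and scl28 from WT by 0.01 (-0.29 to 0.3).

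RAX3 (AT3G49690, chr3:18427735-18429281, plus strand) was the least abundant RAX gene, with 14 to 61 reads per library. WT libraries held 1.11, 1.46, 1.62 and 1.61 CPM and d14-7 libraries 0.843, 0.435, 0.856 and 0.72 CPM. The ckx3 ckx5-labelled libraries held 1.18, 0.931, 0.933 and 0.926 CPM, and scl28 held 1.23, 1.45, 1.17 and 0.942 CPM. All d14-7 libraries lay below every library of the other groups. RAX3 fell 2.04-fold in d14-7 against WT (log2 -1.03 ± 0.23, edgeR adjusted p = 0.00336). In the ckx3 ckx5-labelled libraries the difference of -0.54 ± 0.22 did not pass (adjusted p = 0.0746), nor did that of scl28 (-0.28, adjusted p = 0.402).

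The 3 RAX genes are 68.9% to 73% identical in aligned coding sequence, with no shared run over 20 bases. The log2 ratio of RAX2 to RAX3 was 2 ± 0.26 (SD, n = 4) in the ckx3 ckx5-labelled libraries and 2.38 ± 0.08 (n = 4) in WT, and the groups did not overlap (exact permutation test, two-sided p = 0.0286, the smallest 4 against 4 can give). After adjustment over the 18 ratio tests made within the RAX and CUC families the p was 0.171, a threshold of 0.05 being out of reach at this smallest p unless most of the tests gave it.

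LAS (AT1G55580, chr1:20763844-20765823, plus strand, 1 exon), the GRAS gene without which the rosette forms few axillary meristems, was the least abundant of the 10 genes per kb, at 0.452 CPM per kb in WT. WT held 0.553, 1.1, 1 and 0.923 CPM, and scl28 held 1.56, 1.2, 1.41 and 1.13 CPM. Levels were 1.25, 1.22, 0.632 and 0.607 CPM in the ckx3 ckx5-labelled libraries, and d14-7 held 0.717, 0.528, 0.626 and 0.518 CPM. The scl28 libraries lay above all WT libraries and all d14-7 libraries, and the ckx3 ckx5-labelled libraries split into a high and a low pair. LAS did not pass against WT in any mutant: the differences were 0.57 ± 0.27 in scl28 (edgeR adjusted p = 0.151), -0.59 ± 0.29 in d14-7 (adjusted p = 0.115) and 0.04 ± 0.28 in the ckx3 ckx5-labelled libraries (adjusted p = 0.926). It was 2.23-fold lower in d14-7 than in scl28 (-1.16 ± 0.28, adjusted p = 0.00392). GA2OX4, a gibberellin-inactivating enzyme gene that LAS is known to promote, fell in d14-7 against WT (0.353 against 0.769 CPM, -1.12 ± 0.31, adjusted p = 0.0116).

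CUC3 showed the largest rise of the 10 genes, and its calls were all in comparisons with scl28. CUC3 (AT1G76420, chr1:28671806-28674045, minus strand) stood at 8.5, 8.02, 7.36 and 7.41 CPM in scl28 and at 3.74, 3.63, 3.12 and 2.77 CPM in WT. The ckx3 ckx5-labelled libraries held 3.08, 4.01, 4.3 and 3.23 CPM, and d14-7 held 3.2, 4.29, 2.93 and 3.69 CPM. All scl28 libraries lay above all others, and the other 3 groups overlapped. CUC3 was 2.36-fold higher in scl28 than in WT (log2 1.24 ± 0.14, edgeR adjusted p = 2.83e-05), 2.14-fold higher than in the ckx3 ckx5-labelled libraries (1.1 ± 0.14, adjusted p = 2.46e-05), and d14-7 was 2.21-fold below scl28 (-1.14 ± 0.14, adjusted p = 1.52e-05). These 3 calls held in all 25 alternative settings. Against WT, the difference was 0.14 (95% interval -0.17 to 0.46) in the ckx3 ckx5-labelled libraries and 0.1 (-0.22 to 0.41) in d14-7.

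CUC2 (AT5G53950, chr5:21901704-21903854, minus strand), which carries the miR164 site shown above, stood at 2.54, 2.81, 3.27 and 2.72 CPM in WT and at 2.74, 2.45, 2.67 and 3.89 CPM in d14-7. Levels were 5.2, 4.08, 4.09 and 3.16 CPM in the ckx3 ckx5-labelled libraries, and scl28 held 5.71, 4.03, 3.92 and 4.02 CPM. The scl28 libraries lay above all WT libraries, the ckx3 ckx5-labelled libraries overlapped WT through their replicate 4, and replicate 1 was the highest library of both. CUC2 was 1.56-fold higher in scl28 than in WT (log2 0.64 ± 0.18, edgeR adjusted p = 0.0209), which without scl28 replicate 1 became 0.49 (adjusted p = 0.0804) and without WT replicate 4 became 0.62 (adjusted p = 0.0501). It was 1.46-fold higher in the ckx3 ckx5-labelled libraries (0.54 ± 0.18, adjusted p = 0.0333), which held in 17 of 25 alternative settings and became 0.41 (adjusted p = 0.116) without their replicate 1. d14-7 differed from WT by 0.06 (95% interval -0.34 to 0.45).

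CUC1 (AT3G15170, chr3:5109782-5111608, plus strand), with the same miR164 site, was lowest in d14-7. It stood at 1.69, 1.46, 1.12 and 1.24 CPM there and at 2.89, 1.89, 1.74 and 2.35 CPM in WT. The ckx3 ckx5-labelled libraries held 2.68, 2.51, 1.96 and 2.04 CPM, and scl28 held 2.6, 1.89, 2.96 and 2.57 CPM. All d14-7 libraries lay below all others, and the other 3 groups overlapped. CUC1 fell 1.62-fold in d14-7 against WT (log2 -0.69 ± 0.2, edgeR adjusted p = 0.015), and was lower there than in the ckx3 ckx5-labelled libraries (-0.74 ± 0.2, adjusted p = 0.00919) and in scl28 (-0.88 ± 0.2, adjusted p = 0.00272), in all 25 alternative settings each.

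Within the CUC family, coding identity was 68.6% to 73.5%, with no shared run over 23 bases. The log2 ratio of CUC3 to CUC1 was 1.63 ± 0.32 (SD, n = 4) in scl28 and 0.58 ± 0.34 (n = 4) in WT, without overlap (exact permutation test, two-sided p = 0.0286, adjusted 0.171). The ratio of CUC3 to CUC2 was 0.83 ± 0.18 in scl28 and 0.22 ± 0.29 in WT, with the same exact p (n = 4 each). LSH3 and LSH4, boundary genes that CUC1 is known to switch on, both fell in d14-7, by 1.02 and 0.83 on the log2 scale (edgeR adjusted p = 2.51e-05 and 6.45e-05). DPA4, a known repressor of CUC2, fell in the ckx3 ckx5-labelled libraries (5.71 against 10.1 CPM, -0.82 ± 0.16, adjusted p = 0.00124) and in d14-7 (6.99 CPM, -0.54 ± 0.16, adjusted p = 0.0175). Of the 4 other miR164-related NAC genes, NAC1 and NAC6 fell in d14-7, by 1.43 and 2.15 on the log2 scale, and NAC6 fell in scl28 by 0.91. Over all loci, 20.6% were called lower in d14-7 and 10.5% in scl28. In the ckx3 ckx5-labelled libraries the NAC gene nearest to the threshold was NAC080 (-0.55 ± 0.22, adjusted p = 0.0737).

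LOB (AT5G63090, chr5:25308516-25311019, minus strand), the founding gene of the LBD family, alone passed in all 6 comparisons. It stood at 33.2, 41.6, 47.5 and 46.4 CPM in WT and at 53.4, 46.2, 56 and 55.1 CPM in scl28. Levels were 33, 33.4, 30.1 and 32.7 CPM in the ckx3 ckx5-labelled libraries, and d14-7 held 24.3, 23.2, 21.3 and 24 CPM. d14-7 lay below every other library, and WT replicate 1 lay among the ckx3 ckx5-labelled libraries. With 577 to 2099 reads per library LOB was measured with smaller error than the other boundary genes above. It was 1.82-fold lower in d14-7 than in WT (log2 -0.86 ± 0.1, edgeR adjusted p = 1.84e-05) and 1.31-fold lower in the ckx3 ckx5-labelled libraries (-0.39 ± 0.09, adjusted p = 0.00583), each in all 25 alternative settings. It was 1.25-fold higher in scl28 (0.32 ± 0.09, adjusted p = 0.0251), which held in 18 of them. The largest distance was between d14-7 and scl28, at 2.27-fold (-1.18 ± 0.1, adjusted p = 2.06e-07).

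BAS1, the brassinosteroid-inactivating enzyme gene that LOB is known to switch on, was higher in d14-7 than in WT (9.39 against 6.48 CPM, log2 0.54 ± 0.14, edgeR adjusted p = 0.00887), the opposite direction to LOB. LOB reads fell on several transcript models, of which the first took 55% ± 2.63 in WT, 55.1% ± 5.5 in the ckx3 ckx5-labelled libraries, 48.4% ± 3.87 in d14-7 and 50.6% ± 1.84 in scl28 (SD, n = 4 libraries each). The smallest p of 6 exact two-sided permutation tests of these shares was 0.0571 (adjusted 0.171), where 4 against 4 cannot go below 0.0286. LSH3 was the gene with a symbol whose levels tracked LOB most closely over the 16 libraries, with a root mean square difference of 0.1 between their log2 CPM after centring, beside a spread of 0.46 in LOB itself, and MYB28 came next at 0.12. LSH3 stood at 43.7 CPM in WT, 35.4 CPM in the ckx3 ckx5-labelled libraries, 21.6 CPM in d14-7 and 53.9 CPM in scl28.

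REV (AT5G60690, chr5:24396981-24402195, plus strand, 18 exons) had the most reads of the 10 genes and did not pass in any of the 6 comparisons by edgeR or DESeq2, with 1 at an unadjusted p under 0.05 (d14-7 against scl28, log2 -0.13, adjusted p = 0.092). That difference passed without scl28 replicate 2 (-0.19, edgeR adjusted p = 0.00604) and with scaling by library totals only (-0.2, adjusted p = 0.0214). It stood at 115, 120, 121 and 118 CPM in WT and at 117, 111, 113 and 114 CPM in d14-7. The ckx3 ckx5-labelled libraries held 120, 124, 120 and 117 CPM, and scl28 held 122, 109, 131 and 135 CPM. The WT range lay within the scl28 range, where the libraries spread most. Against WT the 95% interval of the log2 difference was -0.1 to 0.15 in the ckx3 ckx5-labelled libraries, -0.19 to 0.07 in d14-7 and -0.06 to 0.2 in scl28. Per kb of transcript REV, at 33.3 CPM per kb in WT, was close to LOB at 36.5, and both stood above the other 8 genes, which ranged from 0.452 to 6.03. REV shares 67 bases with a gene on the other strand, AT5G60700, and reads there cannot be assigned to a strand.

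Several relatives of REV, and genes of the small proteins that bind them, did pass. Of 9 genes listed, 6 passed in d14-7 against WT, 2 in the ckx3 ckx5-labelled libraries and 4 in scl28, beside 38.7%, 29.6% and 19.8% of all loci. In d14-7, HB8, ZPR3 and AGO10 rose by 0.52, 0.52 and 0.32 on the log2 scale, and ZPR2, ZPR1 and PHB fell by 0.56, 0.38 and 0.31. HB8 is a vascular member of the REV family, ZPR proteins bind and block the family, and AGO10 holds miR165 and miR166 away from its targets. In scl28, ZPR1, AGO10 and PHV rose by 0.55, 0.28 and 0.21 and HB8 fell by 0.41. In the ckx3 ckx5-labelled libraries, AGO10 rose by 0.38 and ZPR2 fell by 0.58. Each passed the edgeR adjusted p of 0.05.

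Other boundary and organ separation genes were counted from a list of 17, of which 16 could be tested. In d14-7 against WT, 9 fell and 2 rose (median log2 fold change -0.32, all loci -0.01), beside 20.6% of all loci lower and 18.1% higher. Beside LSH3 and LSH4 these included BOP2 (-0.84), KNAT2 (-0.61) and KNAT6 (-0.57), where BOP2 is a boundary co-regulator and KNAT2 and KNAT6 are KNOX homeobox genes of meristem and boundary. AS1 (0.23), which represses KNOX genes, was the other riser beside BAS1. In scl28, where 9.3% of all loci were called higher, 5 rose and 11 did not pass (median 0.16): ATH1 (0.57), HAN (0.51), KNAT2 (0.48), BOP2 (0.34) and AS1 (0.26). In the ckx3 ckx5-labelled libraries, ATH1 rose (0.43), AS2 (-0.76) and DPA4 (-0.82) fell, and 13 did not pass (median -0.01), a share called of 18.8% beside 29.6% of all loci.

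**Figure D3:**
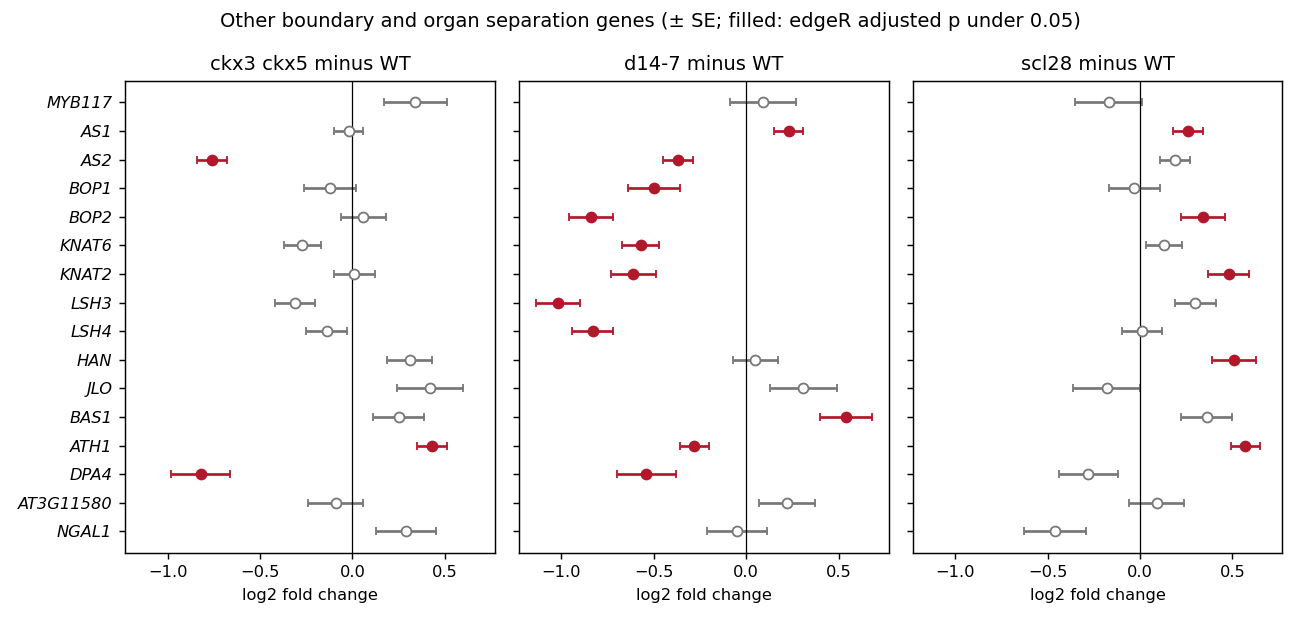
Log2 fold change (horizontal axis) against WT of the 16 other boundary and organ separation genes that could be tested, with bars of 1 SE, in the ckx3 ckx5-labelled libraries, d14-7 and scl28; filled points passed the edgeR adjusted p of 0.05. In d14-7 9 filled points lie left of 0, from -1.02 for LSH3 to -0.28 for ATH1, and in scl28 all 5 filled points lie right of it.

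Among 11 testable regulators and targets in axillary meristems, BRC1, the TCP factor that holds buds dormant, fell in d14-7 from 6.99 to 0.373 CPM (log2 -4.22 ± 0.27, edgeR adjusted p = 8.18e-08) and rose in the ckx3 ckx5-labelled libraries to 11 CPM (0.65 ± 0.19, adjusted p = 0.0177). In d14-7, GA2OX4 and the meristem homeobox genes STM (-0.54) and BLR (-0.42) also fell. In total 4 of the 11 fell there and 1 rose, beside 20.6% of all loci lower and 18.1% higher. Of the 5 meristem genes listed for the tissue check, 4 could be tested in d14-7 against WT, and 1 rose and 1 fell. In the ckx3 ckx5-labelled libraries, DRNL and SPL9 rose by 1.42 and 0.55 and PNF fell by 0.55. In scl28, where 9.3% of all loci were called higher, SPL9 was among the 2 that rose, by 0.34. Median differences of the list were -0.24, 0.31 and 0.11 in that order of groups, beside -0.01 to 0.01 for all loci.

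MYB and WRKY genes related to the members were counted too. MYB68 fell in d14-7 (-1.38 ± 0.31, edgeR adjusted p = 0.00352) and in the ckx3 ckx5-labelled libraries (-0.87 ± 0.3, adjusted p = 0.0369), and MYB87 fell in d14-7 at a level of 0.162 CPM. All 3 listed MYB relatives of the RAX genes had negative differences in each mutant against WT, in comparisons that share the WT libraries. Of the 3, 2 passed in d14-7, 1 in the ckx3 ckx5-labelled libraries and 0 in scl28, beside 20.6%, 16% and 10.5% of all loci called lower. Of 5 WRKY relatives, WRKY48 fell in d14-7 by 1.05 and in the ckx3 ckx5-labelled libraries by 0.64, WRKY28 fell in d14-7 by 0.72, and WRKY8 fell in scl28 by 0.98. WRKY23 and WRKY57 rose in d14-7 by 0.43 and 0.26, and WRKY57 fell in the ckx3 ckx5-labelled libraries by 0.54.

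Genes with levels most like each member, by the same root mean square difference over 16 libraries, were GT72B1 and BLH1 for RAX2 (0.17 each) and UGE5 and WRKY48 for RAX3 (0.2 and 0.22). MYB56 and EXPA20 lay nearest to CUC3 (0.22 and 0.25), MGT7 and KNATM to CUC2 (0.21 each), and GH9B1 and CLE41 to CUC1 (0.23 each). SGP1 and OLEO4 lay nearest to RAX1 (0.24 and 0.26), and FMO GS-OX4 and ZIP1 to LAS (0.24 and 0.25). For WRKY71, cPT5 at 0.37 and MYB62 at 0.42 came first. Its own spread was 1, where the spreads of the other called members ran from 0.35 (CUC2) to 0.55 (RAX1). The size of these differences therefore does not rank how closely each member was matched.

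Leaf transcripts moved with several of these results. A leaf score, the mean log2 CPM of 17 photosynthesis genes, was 10.5, 10.02, 9.52 and 9.28 in WT replicates 1 to 4 and 10.52, 10.16, 10.33 and 10.51 in d14-7. It was 9.45, 9.7, 9.68 and 9.33 in the ckx3 ckx5-labelled libraries and 9.57, 9.66, 9.33 and 9.25 in scl28. WT replicate 1 carried as much leaf transcript as d14-7, and it was the WT library with the lowest LAS, RAX1, RAX2, RAX3, CUC2, LOB, REV and WRKY71 and the highest CUC1 and CUC3. All 17 leaf genes had positive log2 differences in d14-7 against WT, of which 7 passed (41.2%, beside 18.1% of all loci called higher). Against scl28, 16 passed, all higher in d14-7 (94.1%, beside 20% of all loci called higher). Summed, the list gave 26100 to 33200 CPM in d14-7, 16000 to 31700 CPM in WT, 17600 to 20900 CPM in the ckx3 ckx5-labelled libraries and 16000 to 19300 CPM in scl28.

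With the leaf score as a term in the model, WRKY71 in d14-7 against WT was -1.67 (edgeR adjusted p = 0.00525), LOB -0.66 (adjusted p = 6.93e-05), RAX2 -0.66 (adjusted p = 0.00454), RAX3 -0.94 (adjusted p = 0.0463) and CUC1 -0.78 (adjusted p = 0.0401). RAX1 became -0.74 and no longer passed (adjusted p = 0.094). Of the WT scores, only that of replicate 1 (10.5) lay within the d14-7 range, and those of the others (10.02, 9.52 and 9.28) lay below it. The overlap of d14-7 and WT in leaf score thus rests on that library, so these values separate leaf score and genotype poorly. Every d14-7 score (10.16 to 10.52) lay above every score of scl28 (9.25 to 9.66) and of the ckx3 ckx5-labelled libraries (9.33 to 9.7). Between d14-7 and these groups, leaf score and genotype therefore can hardly be told apart, whether a call was kept or lost. In d14-7 against scl28, CUC1, CUC3, LOB and RAX2 still passed, with RAX2 going from -0.95 to -0.51. Calls were lost there at similar sizes but with a wider error for CUC2 (-0.58 to -0.66 ± 0.29), LAS (-1.16 to -0.96 ± 0.46) and RAX3 (-0.75 to -0.62 ± 0.37), and at smaller sizes for WRKY71 (-1.85 to -0.69 ± 0.45) and RAX1 (-0.88 to -0.35 ± 0.35). In d14-7 against the ckx3 ckx5-labelled libraries, CUC1 alone of the 4 still passed. There CUC2 went from -0.49 to -0.55 ± 0.28, LOB from -0.48 to -0.18 ± 0.1 and WRKY71 from -1.45 to -0.41 ± 0.43. In scl28 against WT, CUC3 was higher by 1.38 with the term (edgeR adjusted p = 3.89e-06), and WRKY71, uncalled without it, was lower by 0.98 (log2 -0.98 ± 0.28, adjusted p = 0.012).

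**Figure D4:**
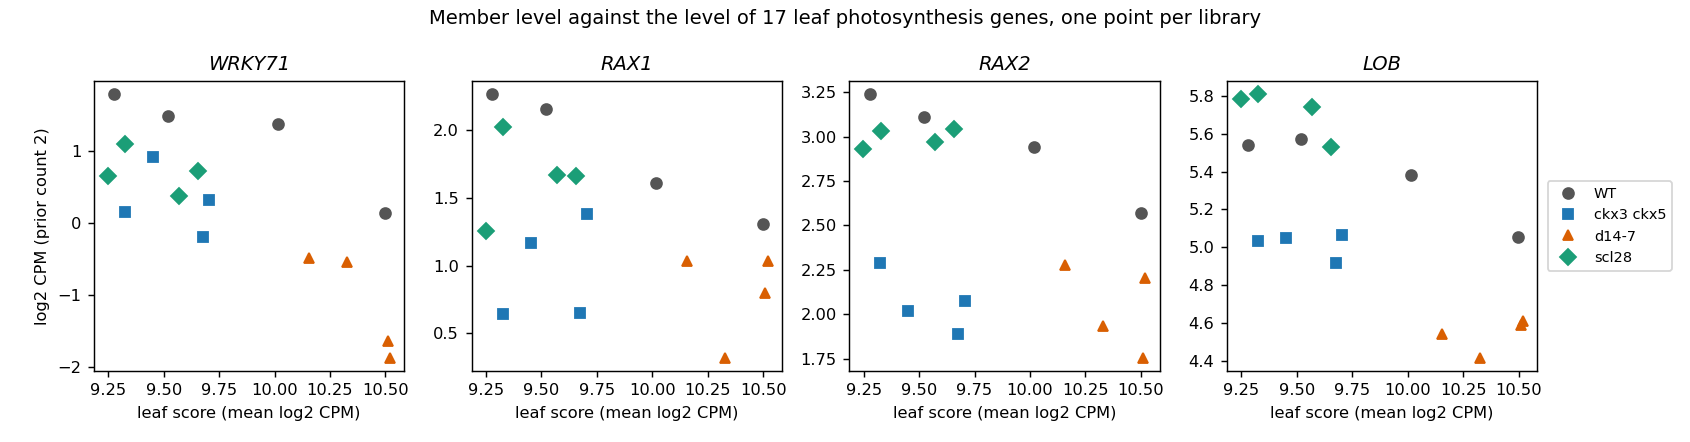
Level of WRKY71, RAX1, RAX2 and LOB (vertical axis, log2 CPM with a prior count of 2) against the leaf score (horizontal axis, mean log2 CPM of 17 photosynthesis genes), with 1 point per library and the blue squares the ckx3 ckx5-labelled libraries. WT replicate 1, at a score of 10.5, is the lowest WT point in each panel, and for RAX2 the ckx3 ckx5-labelled libraries, at scores of 9.33 to 9.7, lie below every WT and scl28 library.

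Markers of other tissues moved too. The 6 listed xylem genes summed to 267 to 313 CPM in d14-7 and 249 to 280 CPM in the ckx3 ckx5-labelled libraries. Their sum was 212 to 243 CPM in WT and 170 to 221 CPM in scl28. The 4 root genes summed to 8.48 to 12.3 CPM in d14-7 and 3.51 to 7.05 CPM in WT. The 7 flower genes summed to 6.26 to 23.1 CPM in the ckx3 ckx5-labelled libraries and 7.53 to 16.6 CPM in scl28, the groups in which CUC2 rose, beside 4.96 to 8.65 CPM in WT and 6.86 to 10.5 CPM in d14-7. Of the 7 flower genes 4 rose in the ckx3 ckx5-labelled libraries (median log2 fold change of the list 1.1), where 13.6% of all loci were called higher. In scl28 1 rose (median 0.6), beside 9.3% of all loci. AP1, a floral meristem gene, rose in both groups, to 5.24 and 5.27 CPM from 2.53 CPM in WT. All 10 clock genes passed in the ckx3 ckx5-labelled libraries against WT, beside 29.6% of all loci. The morning gene LHY stood there at 21.2 CPM against 258 CPM in WT, and at 526 CPM in scl28. The part of clock phase, xylem, root, flower or leaf content in the differences of the members was not tested. The leaf term above cannot separate leaf content from genotype where the scores of 2 groups do not overlap. For d14-7 and WT the overlap rests on WT replicate 1 alone.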

How the data were processed

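Poly(A) RNA from 16 pooled rosette samples was sequenced from a kit that does not mark strand, per the labels. The authors deposited raw counts for 41671 transcript models; TAIR10 and DESeq2 are named in the submitters' processing notes, while the aligner and counting tool were not given in the sources used here. From 5 pools collected, the 4 of highest RNA integrity were sequenced per group, per the labels. The numbers in the scl28 library names nevertheless reach 6. The deposited normalized table was not used.

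Counts were summed to 33602 loci, of which 5885 had several models. Library totals ran from 24334925 to 36735056, and 24269 to 28493 loci had a count in a library. No 2 libraries of a group agreed within sampling noise (chi-square per locus 4.61 to 90.2). WT libraries differed most among themselves, with a largest value of 90.2. The largest was 14.4 in the ckx3 ckx5-labelled libraries, 18.1 in d14-7 and 27.4 in scl28.

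Loci passing filterByExpr were scaled by TMM and fitted in edgeR 4.0.16 (R 4.3.3) with 1 quasi-likelihood model of 4 genotypes. All 6 pairs of genotypes were tested with Benjamini-Hochberg adjustment over 20947 loci at a threshold of 0.05. Log2 CPM used a prior count of 2. Shares and ratios used exact two-sided permutation tests. The steps were tested on simulated data. Alternatives were DESeq2 1.42.0, other scaling and filters, fits of 2 groups, replicate blocks, a leaf score term and leaving out each library. The p-values measure the spread between pooled samples.

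The members and all gene lists were chosen with earlier results of these data known. Named were all 10 members, up to 6 called genes of each list by size of change, and for each called member the 2 nearest loci with a symbol. Coordinates and sequences are from RefSeq TAIR10.1, whose table held 32835 of the loci, read with Biopython 1.88. Replicates carry the numbers of the sample titles. Some items withheld for evaluation are not reported here.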

Additional observations from a re-analysis of the deposited data

Results flagged for a closer look

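Of 40 groups of 4 libraries (10 genes in 4 genotypes), 2 had a library far from the others, where chance gives about 1 in 20. RAX3 stood at 1.18 CPM in replicate 1 of the ckx3 ckx5-labelled libraries, with 0.926 to 0.933 CPM in the other libraries of the group, a gap of 0.972 of the group's range. CUC2 stood at 5.71 CPM in scl28 replicate 1, with 3.92 to 4.03 CPM in the others, a gap of 0.941 of the range.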

How the results depend on the processing

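Each of the 60 differences of the 10 genes was recomputed under 25 other settings, of which 16 each left out 1 library. Of these 1500 values, 1397 kept their direction and their side of the threshold, 70 lost the call, 7 gained one and 26 changed sign, 0 of them among called differences. Of 31 called differences, 16 passed in all 25 settings. For values that moved below, the cause was not tested, except that fits of 2 groups and fits without a library use fewer libraries.

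The number of loci called moved by more than 1.5 times as follows. For d14-7 against WT it was 8101 and became 5034 with only these groups, 2748 with the leaf score term, 4906 with library-name numbers as a replicate block, and 5026 to 10342 without 1 library (5026 without WT replicate 4, 5234 without WT replicate 3, 10342 without WT replicate 1). For scl28 against WT it was 4155 and became 2221 with only these groups and 7491 with the leaf term. With the leaf term it rose from 6205 to 9330 for the ckx3 ckx5-labelled libraries against WT. For d14-7 against scl28 it was 8899, then 4494 with the leaf term and 5121 with the library-name block. For scl28 against the ckx3 ckx5-labelled libraries it was 5169 and 3261 with that block.

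Of the 10 genes, 5 were called in the ckx3 ckx5-labelled libraries against WT, which became 3 with the replicate block from the titles, 2 with the library-name block, and 3 to 6 without 1 library (3 without WT replicate 2 or 4 or their own replicate 2 or 3). In scl28 against WT 3 were called, with 1 to 4 without 1 library (1 without scl28 replicate 1). With the leaf term, the 4 called in d14-7 against the ckx3 ckx5-labelled libraries became 1, and the 9 called in d14-7 against scl28 became 4.

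Title numbers did not pair the libraries: deviations of same-numbered libraries correlated at -0.28 to 0.34, over 0.1 in 4 of 24 pairs, and at -0.28 to 0.19 for library-name numbers, over 0.1 in 2 of 16. With the title block 5881 loci were called for the ckx3 ckx5-labelled libraries against WT, 7837 for d14-7 and 3889 for scl28. RAX1 in the ckx3 ckx5-labelled libraries lost its call against WT with the library-name block alone (-0.75, edgeR adjusted p = 0.0629).

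Sign changes were all among uncalled log2 differences. With the leaf term they were CUC3 in d14-7 against WT (-0.08), LAS in the ckx3 ckx5-labelled libraries against WT (-0.01), RAX1 and RAX2 in d14-7 against the ckx3 ckx5-labelled libraries (0.3 and 0.38) and RAX2 in scl28 against WT (-0.15). With the library-name block, RAX2 became 0.03 in d14-7 against the ckx3 ckx5-labelled libraries and -0.01 in scl28 against WT. Without 1 library, ranges that crossed 0 against WT were CUC3 (-0.01 to 0.18) and CUC2 (-0.12 to 0.14) in d14-7, LAS (-0.14 to 0.2) and CUC1 (-0.05 to 0.2) in the ckx3 ckx5-labelled libraries, and RAX2 in scl28 (-0.11 to 0.1). Against the ckx3 ckx5-labelled libraries they were RAX2 (-0.11 to 0.07) and CUC3 (-0.16 to 0.04) in d14-7 and CUC2 in scl28 (-0.05 to 0.23).

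Without WT replicate 1, 3 further differences from WT passed: LAS in d14-7 (-0.76, edgeR adjusted p = 0.0377), WRKY71 in scl28 (-0.85, adjusted p = 0.0438) and RAX3 in the ckx3 ckx5-labelled libraries (adjusted p = 0.0343).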
